A study of Arabidopsis thaliana with 48 samples.

Results

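The 10 genes described here mark dividing plant cells and were taken by locus from a table of reads per gene that holds 27206 genes. They are the plant-specific B-type cyclin-dependent kinases CDKB1;1 (AT3G54180), CDKB1;2 (AT2G38620), CDKB2;1 (AT1G76540) and CDKB2;2 (AT1G20930), the mitotic cyclins CYCB1;1 (AT4G37490) and CYCB1;2 (AT5G06150), the Aurora kinases AUR1 (AT4G32830) and AUR2 (AT2G25880), the cytokinesis syntaxin KNOLLE (AT1G08560) and the G1 cyclin CYCD3;1 (AT4G34160). All 10 passed the filter on low counts, as did 19566 genes in all, the members included. RNA was sequenced from meristem-enriched shoot tips of Arabidopsis thaliana grown at 21 °C in short days, with 8 h of light and 16 h of dark. Apices were taken when plants were 3, 4, 5 or 6 weeks old, counted from sowing. The 4 genotypes were chr4-2, qem2, quintuple and WT. The line chr4-2 carries the T-DNA insertion sail_783c05 in the chromatin remodeller gene CHR4, and qem2 is a line with a lesion in CHR4 obtained by mutagenesis of the quintuple mutant. Quintuple is svp flc ft tsf soc1, with lesions in 5 regulators of flowering time, and WT is the accession Col. The quintuple lesions are carried by qem2 as well, so that its control is the quintuple mutant, and the control of chr4-2 is WT. Each genotype and week had 3 biological replicates of 15 pooled apices, and the study compared chr4-2 with WT, quintuple with WT and qem2 with quintuple over the short-day course.

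The column of qem2 at 5 weeks replicate 3 held the same count as that of quintuple at 5 weeks replicate 3 for all 27206 genes, so it was left out, which left 47 libraries and 2 for qem2 at 5 weeks. Libraries held 2.91 M (qem2 at 6 weeks, replicate 1) to 19.7 M reads in genes, with a median of 14.2 M, and each library counted 63 to 3352 reads for a member. Levels below are CPM, a gene's count divided by the TMM-scaled library size and multiplied by 1000000, fold changes are log2 ± SE from one edgeR quasi-likelihood fit of the 47 libraries, and a gene was called at a Benjamini-Hochberg adjusted p under 0.05 over 19566 genes. CHR4 itself had mean levels of 76.0 to 108 CPM over the weeks in chr4-2, against 171 to 232 CPM in WT, and of 251 to 311 CPM in qem2, against 178 to 266 CPM in quintuple. Of the meristem markers, STM, a homeobox gene of the shoot meristem, was read in all 47 libraries at 41.1 to 175 CPM, and WUS, the organizing-centre gene, at 0 to 1.46 CPM. The floral organ genes AP1, AP3 and AG were each at 0 in 39 of the 47, and PI was at 0 in 21. Summed, these 4 genes averaged 3.43 CPM in quintuple at 6 weeks (libraries from 0.0787 to 5.31 CPM). In every other group their mean was at most 0.480 CPM.

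A dividing cell passes through G1, DNA replication, G2 and mitosis, and D-type cyclins such as CYCD3;1 act with CDKA;1 at the entry into replication, where they phosphorylate the retinoblastoma protein. B-type cyclins and B-type kinases, the kinases being peculiar to plants, drive the passage from G2 into mitosis, Aurora kinases act on the spindle and the forming cell plate, and KNOLLE fuses the vesicles that build that plate. In Arabidopsis many G2 and mitosis genes are controlled by MYB3R proteins, which bind the mitosis-specific activator (MSA) element with the core AACGG, whereas genes of G1 and replication often carry E2F sites.

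The promoters of the mitotic cyclin, Aurora and KNOLLE genes are shown because all of them hold the MSA core. That of the kinase gene CDKB1;2 is shown because it holds none. The kinase genes CDKB1;1 and CDKB2;1, not shown, hold none either. Over the group means, Pearson's r of CDKB1;2 was 0.95 with AUR1, 0.86 with AUR2 and 0.76 with KNOLLE. With the mitotic cyclins, in the order of the sequences below, it was 0.52 and 0.86. Whether the core bears on these values was not tested. Each promoter is the 300 bases that end at the base before the annotated gene start, 5′ to 3′ on the strand of the gene. The sequences are from the RefSeq assembly TAIR10.1, and capitals mark every AACGG or its reverse complement CCGTT.

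CYCB1;1, chr4:17624309-17624608, minus strand: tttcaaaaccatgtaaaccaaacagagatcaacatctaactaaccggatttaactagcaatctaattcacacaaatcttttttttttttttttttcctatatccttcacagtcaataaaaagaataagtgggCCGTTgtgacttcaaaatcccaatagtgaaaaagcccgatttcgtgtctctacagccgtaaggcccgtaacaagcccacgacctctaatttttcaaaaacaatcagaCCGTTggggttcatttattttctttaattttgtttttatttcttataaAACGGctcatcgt
CYCB1;2, chr5:1861704-1862003, minus strand: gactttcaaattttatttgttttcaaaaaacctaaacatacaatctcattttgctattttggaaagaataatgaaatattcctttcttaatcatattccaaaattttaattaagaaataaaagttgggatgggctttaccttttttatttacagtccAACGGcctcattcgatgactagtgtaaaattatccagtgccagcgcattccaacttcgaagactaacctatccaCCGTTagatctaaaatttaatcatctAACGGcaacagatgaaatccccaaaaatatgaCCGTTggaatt
AUR1, chr4:15842143-15842442, plus strand: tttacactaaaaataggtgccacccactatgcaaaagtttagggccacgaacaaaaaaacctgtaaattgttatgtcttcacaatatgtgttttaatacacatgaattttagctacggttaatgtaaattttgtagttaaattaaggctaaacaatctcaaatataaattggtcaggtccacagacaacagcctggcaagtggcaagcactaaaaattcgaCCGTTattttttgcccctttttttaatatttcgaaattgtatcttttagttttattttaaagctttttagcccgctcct
AUR2, chr2:11038192-11038491, minus strand: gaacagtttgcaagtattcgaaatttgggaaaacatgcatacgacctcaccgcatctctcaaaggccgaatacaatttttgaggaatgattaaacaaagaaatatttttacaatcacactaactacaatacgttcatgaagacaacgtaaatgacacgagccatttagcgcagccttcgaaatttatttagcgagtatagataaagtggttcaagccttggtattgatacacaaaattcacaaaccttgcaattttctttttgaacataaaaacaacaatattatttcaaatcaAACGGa
KNOLLE, chr1:2711001-2711300, minus strand: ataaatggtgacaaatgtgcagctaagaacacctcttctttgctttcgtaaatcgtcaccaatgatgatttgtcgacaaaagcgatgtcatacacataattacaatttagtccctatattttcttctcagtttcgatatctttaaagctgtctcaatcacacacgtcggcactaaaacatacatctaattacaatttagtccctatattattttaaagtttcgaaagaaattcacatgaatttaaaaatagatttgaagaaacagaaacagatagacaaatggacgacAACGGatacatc
CDKB1;2, chr2:16152173-16152472, plus strand: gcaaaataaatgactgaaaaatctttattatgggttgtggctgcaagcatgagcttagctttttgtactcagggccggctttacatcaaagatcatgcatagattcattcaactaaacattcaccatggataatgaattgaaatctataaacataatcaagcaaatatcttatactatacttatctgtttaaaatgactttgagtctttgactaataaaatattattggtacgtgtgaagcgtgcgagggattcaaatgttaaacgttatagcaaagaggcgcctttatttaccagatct

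CYCB1;1 holds the core 3 times, at 164, 57 and 9 bases before the annotated start, and CYCB1;2 holds it 4 times, at 139, 65, 39 and 7 bases. AUR1, AUR2 and KNOLLE hold it once, at 75, 2 and 8 bases. CDKB2;2 and CYCD3;1 also have one match each, at 85 and 141 bases, so that 7 of the 10 members hold the core on either strand, beside 23.4% of 27438 promoters of that length. At least 2 matches stood in 2 of the 10 members and in 4.53% of all promoters. The motif TTCCCGC, a form of the E2F site, was searched on both strands and was found in 0 of the 10 members and in 1.34% of all promoters. The windows of CDKB1;1, CDKB2;1 and CYCD3;1 overlap a neighbouring gene. A match is a description of these letters.

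Set per length of exon, so that genes can be compared, KNOLLE had the highest level of the 10 and AUR2 the lowest. The length is the union of the exons annotated in TAIR10.1 over all isoforms, which gives 2379 bases for AUR2 with 4 isoforms and 1510 bases for AUR1 with 1. The last place of AUR2 and its ratio to AUR1 depend on that length, and in CPM alone CDKB1;2 had the lower median (21.5 CPM, against 24.4 CPM for AUR2). The median over the 47 libraries, with the lowest and highest library in brackets, was 96.0 (65.8 to 137) CPM per kb for KNOLLE and 66.4 (52.5 to 82.4) for CYCD3;1. Next came CDKB2;1 at 60.6 (45.0 to 77.6), CYCB1;2 at 49.9 (33.9 to 73.1) and CDKB2;2 at 30.7 (22.3 to 42.2) CPM per kb. CDKB1;1 stood at 27.3 (14.9 to 36.2), CYCB1;1 at 21.9 (14.5 to 27.1), AUR1 at 21.3 (15.2 to 36.1), CDKB1;2 at 14.0 (10.3 to 20.0) and AUR2 at 10.3 (6.64 to 17.4) CPM per kb. These medians place AUR2 at the percentile 48.7 and KNOLLE at 95.6 of 20256 genes with a level per length. In WT at 3 weeks the order was KNOLLE (123 ± 13.5 CPM per kb, SD, n = 3), CDKB2;1 (68.4 ± 5.94), CYCB1;2 (68.1 ± 7.99), CYCD3;1 (55.3 ± 1.62), CDKB2;2 (37.2 ± 4.74), CDKB1;1 (32.0 ± 1.37), AUR1 (31.4 ± 1.80), CYCB1;1 (25.0 ± 1.50), CDKB1;2 (18.1 ± 2.24) and AUR2 (15.3 ± 2.16). CDKB2;1 and CYCB1;2 differed by less than either SD, as did CDKB1;1 and AUR1, and KNOLLE stood clear of the others. Of each pair of relatives one was higher per length: over the 47 libraries the ratio of CDKB1;1 to CDKB1;2 was 1.32 to 2.36, that of CDKB2;1 to CDKB2;2 1.28 to 2.44, that of AUR1 to AUR2 1.71 to 2.68, and that of CYCB1;1 to CYCB1;2 0.305 to 0.556. The transcripts of a pair were 67.9% (CYCB1) to 84.1% (CDKB1) identical where aligned, with identical runs of at most 41 bases, and how the counting treated reads that match both genes is not given in the sources used here. Within groups, the SD of log2 CPM was 0.09 for CYCD3;1 and 0.12 to 0.20 for the other members. The 16 group means of a gene spanned 0.45 (CYCD3;1) to 0.95 (AUR1) on the log2 scale. For the 8225 tested genes in the members' range of mean CPM, the median SD was 0.14 and the median span 0.61.

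**Figure D1:**
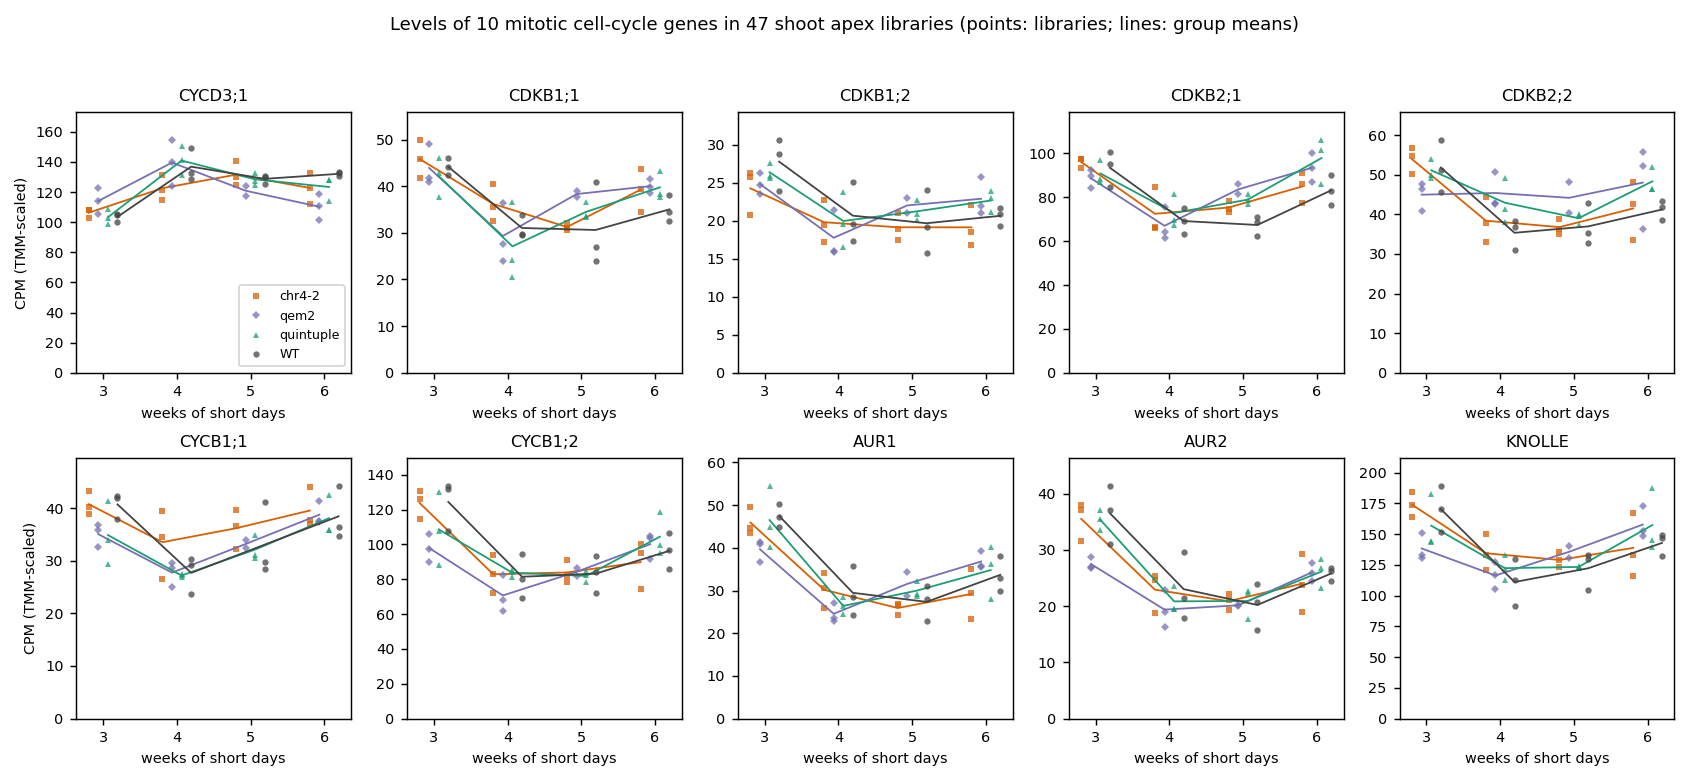
Level of each member (CPM, y axis, from 0) by week after sowing (x axis) in chr4-2, qem2, quintuple and WT, where points are libraries and lines join the means of 3 libraries, or 2 for qem2 at 5 weeks. AUR1 dips after 3 weeks in every genotype (WT means 47.5 CPM at 3 weeks and 29.5 CPM at 4 weeks), while CYCD3;1 runs the other way.

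Between 3 and 4 weeks, most of the genes of G2 and mitosis fell in every genotype and the G1 cyclin rose. In WT all 9 genes of G2 and mitosis were called lower at 4 weeks, where 17.4% of the tested genes were called lower, and CYCD3;1 was called higher, where 17.5% were. In chr4-2, 6 were lower and 1 higher (15.4% and 14.5% of all genes), in quintuple 8 and 1 (21.6% and 23.8%), and in qem2 7 and 1 (21.0% and 22.9%). The median log2 fold change of the 10 members was -0.56 in WT, -0.39 in chr4-2, -0.37 in quintuple and -0.44 in qem2, beside medians of all tested genes between 0.01 and 0.03. In bulk apices, fewer dividing cells and less RNA per dividing cell cannot be told apart.

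The largest fall of the 10 was that of AUR1 in WT, quintuple and qem2 and that of AUR2 in chr4-2. AUR1 had 28.4, 35.8 and 24.2 CPM in the WT libraries at 4 weeks, against 44.9, 50.4 and 47.1 CPM at 3 weeks (log2 fold change -0.70 ± 0.14, adjusted p = 0.000224). In chr4-2 it had 34.0, 30.5 and 25.9 CPM at 4 weeks, against 43.5, 49.6 and 44.7 CPM at 3 weeks (log2 fold change -0.61 ± 0.14, adjusted p = 0.0013). In both genotypes every library of 4 weeks lay below every library of 3 weeks. How many of all tested genes separate 2 groups in this way is not given, so such separations, here and below, are descriptions. AUR1 in quintuple was read at 28.4, 26.3 and 24.5 CPM at 4 weeks and at 44.8, 54.5 and 40.2 CPM at 3 weeks (log2 fold change -0.82 ± 0.14, adjusted p = 1.53e-05). In qem2 the levels were 27.1, 22.9 and 23.6 CPM at 4 weeks and 40.9, 41.4 and 36.6 CPM at 3 weeks (log2 fold change -0.69 ± 0.14, adjusted p = 0.000156). The groups did not overlap here either, and the 4-week libraries of qem2 were the lowest of the 4 genotypes on average. AUR2, its close relative, had 21.4, 29.6 and 18.0 CPM at 4 weeks in WT, against 31.1, 37.0 and 41.4 CPM at 3 weeks (log2 fold change -0.69 ± 0.16, adjusted p = 0.000895). WT at 4 weeks replicate 2 was the highest AUR2 library of its group and still lay below all 3 libraries of 3 weeks. In chr4-2 the AUR2 libraries had 25.4, 24.6 and 18.8 CPM at 4 weeks, against 37.9, 31.6 and 37.1 CPM at 3 weeks (log2 fold change -0.63 ± 0.16, adjusted p = 0.00268). In quintuple they had 23.5, 19.5 and 19.5 CPM at 4 weeks, against 33.5, 35.4 and 37.1 CPM at 3 weeks (log2 fold change -0.76 ± 0.15, adjusted p = 0.000149). The values in qem2 were 22.9, 18.9 and 16.3 CPM at 4 weeks and 26.7, 28.8 and 26.9 CPM at 3 weeks (log2 fold change -0.51 ± 0.16, adjusted p = 0.00847). No group of 4 weeks overlapped its group of 3 weeks, and the qem2 libraries of 3 weeks were the lowest of that week. The qem2 call of AUR2 was lost without 4 weeks replicate 3 (adjusted p = 0.0568).

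Of the mitotic cyclins, CYCB1;2 had the higher level. It was read at 80.1, 94.7 and 69.4 CPM at 4 weeks in WT, against 108, 132 and 134 CPM at 3 weeks (log2 fold change -0.62 ± 0.13, adjusted p = 0.000443), with no overlap. In chr4-2 its libraries had 93.6, 82.8 and 72.1 CPM at 4 weeks and 131, 126 and 115 CPM at 3 weeks (log2 fold change -0.58 ± 0.13, adjusted p = 0.00112), again apart. The falls in quintuple and qem2 were -0.38 ± 0.13 (adjusted p = 0.0177) and -0.47 ± 0.13 (adjusted p = 0.00375). Its quintuple libraries at 3 weeks ranged from 88.3 to 129.8 CPM, and without replicate 2, the highest, the quintuple call was lost (adjusted p = 0.192). CYCB1;1, which also rises after DNA damage, had 30.3, 29.1 and 23.6 CPM at 4 weeks in WT, against 37.9, 42.3 and 41.9 CPM at 3 weeks (log2 fold change -0.56 ± 0.13, adjusted p = 0.00136). In quintuple it had 27.5, 27.3 and 26.8 CPM at 4 weeks and 29.3, 41.4 and 34.0 CPM at 3 weeks (log2 fold change -0.36 ± 0.13, adjusted p = 0.0256). The 3-week libraries of quintuple spread widely and the 4-week ones lay close together. This cyclin was also called lower in qem2 (-0.34 ± 0.13, adjusted p = 0.0354) and was not called in chr4-2, where the value was -0.29 ± 0.13 (adjusted p = 0.097). This call was lost in quintuple without 3 weeks replicate 2 or 4 weeks replicate 3 (adjusted p 0.0645 to 0.229) and in qem2 without 3 weeks replicate 1 or 2 or 4 weeks replicate 3 (adjusted p 0.0686 to 0.117), and chr4-2 gained one without 4 weeks replicate 1 (adjusted p = 0.0383).

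The B-type kinases fell in most genotypes but less evenly. CDKB2;1 had 69.0, 75.3 and 63.2 CPM at 4 weeks in WT, against 84.6, 95.2 and 101 CPM at 3 weeks (log2 fold change -0.44 ± 0.10, adjusted p = 0.000724), with every 4-week library below every 3-week one. It was called lower in the other 3 genotypes too, with log2 fold changes of -0.41 in chr4-2, -0.32 in quintuple and -0.40 in qem2 (adjusted p of 0.00186, 0.00704 and 0.000985). CDKB2;2 was read at 36.8, 38.3 and 31.0 CPM at 4 weeks in WT, against 45.6, 58.8 and 51.2 CPM at 3 weeks (log2 fold change -0.56 ± 0.13, adjusted p = 0.00136). In chr4-2 it had 44.3, 33.1 and 37.9 CPM at 4 weeks and 50.2, 54.8 and 56.8 CPM at 3 weeks (log2 fold change -0.50 ± 0.13, adjusted p = 0.00469). In qem2 it had 42.8, 42.6 and 50.8 CPM at 4 weeks and 46.4, 47.7 and 40.9 CPM at 3 weeks, and in quintuple 41.5, 38.0 and 49.3 CPM and 50.0, 54.1 and 49.3 CPM. The WT and chr4-2 groups stood apart, while the qem2 and quintuple groups overlapped or touched, with changes of 0.01 ± 0.13 (adjusted p = 0.942) in qem2 and -0.25 ± 0.13 (adjusted p = 0.113) in quintuple. The chr4-2 call was lost without 4 weeks replicate 2 (adjusted p = 0.0622), and quintuple gained one without 4 weeks replicate 3 (adjusted p = 0.0411).

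CDKB1;1 was highest at 3 weeks in all genotypes. In quintuple its libraries had 36.6, 24.2 and 20.6 CPM at 4 weeks and 42.8, 46.1 and 37.6 CPM at 3 weeks (log2 fold change -0.65 ± 0.16, adjusted p = 0.000965). In WT the levels were 33.8, 29.8 and 29.5 CPM at 4 weeks and 42.3, 44.0 and 46.1 CPM at 3 weeks (log2 fold change -0.51 ± 0.16, adjusted p = 0.011). The weeks did not overlap in either genotype, and replicate 1 of quintuple at 4 weeks lay near the 3-week libraries. It fell in qem2 as well (-0.59 ± 0.16, adjusted p = 0.00253), and the chr4-2 value was -0.35 ± 0.16 (adjusted p = 0.088), not called. CDKB1;2 had 19.6, 25.1 and 17.3 CPM at 4 weeks in WT, against 24.0, 30.6 and 28.8 CPM at 3 weeks (log2 fold change -0.44 ± 0.15, adjusted p = 0.0177). These groups overlapped, since 4 weeks replicate 2 lay above 3 weeks replicate 1, and the call was lost without 3 weeks replicate 2 or 3 or 4 weeks replicate 1 or 3 (adjusted p 0.0546 to 0.134). In quintuple and qem2 it was called lower, with values of -0.41 ± 0.14 (adjusted p = 0.0203) and -0.48 ± 0.15 (adjusted p = 0.007), and in chr4-2 the value was -0.31 ± 0.15 (adjusted p = 0.111). The quintuple call was lost without 3 weeks replicate 2 or 4 weeks replicate 3 (adjusted p 0.0653 to 0.151).

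KNOLLE, the syntaxin of the cell plate, had 113, 129.5 and 91.1 CPM at 4 weeks in WT, against 152, 189 and 170.2 CPM at 3 weeks (log2 fold change -0.62 ± 0.13, adjusted p = 0.000309). In chr4-2 it had 149.8, 133 and 121 CPM at 4 weeks and 174, 184 and 164 CPM at 3 weeks (log2 fold change -0.37 ± 0.13, adjusted p = 0.0255). Neither pair of groups overlapped, but the chr4-2 call was lost without 3 weeks replicate 1 or 2 or 4 weeks replicate 2 or 3 (adjusted p 0.0687 to 0.129). In quintuple it had 133, 112 and 122 CPM at 4 weeks and 143, 183 and 145 CPM at 3 weeks (log2 fold change -0.36 ± 0.13, adjusted p = 0.0201), and the call was lost without 3 weeks replicate 2 or 4 weeks replicate 2 (adjusted p 0.0754 to 0.172). In qem2 KNOLLE had 128, 116 and 105 CPM at 4 weeks and 133, 151 and 131 CPM at 3 weeks, a value of -0.25 ± 0.13 (adjusted p = 0.109) that was not called, though it passed without 4 weeks replicate 1 (adjusted p = 0.0324).

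CYCD3;1 was the one member that rose. In WT it had 129, 149 and 133 CPM at 4 weeks, against 105, 106 and 100.1 CPM at 3 weeks (log2 fold change 0.40 ± 0.08, adjusted p = 0.000191). In quintuple it had 131, 151 and 141 CPM at 4 weeks and 98.5, 103 and 108 CPM at 3 weeks (log2 fold change 0.45 ± 0.08, adjusted p = 2.39e-05). In both, all 4-week libraries were above all 3-week libraries. In qem2 it was read at 124, 154 and 139.9 CPM at 4 weeks and 105, 122 and 114 CPM at 3 weeks (log2 fold change 0.29 ± 0.08, adjusted p = 0.0031), and the call was lost without 4 weeks replicate 2 (adjusted p = 0.0864). In chr4-2 the levels were 115, 131 and 122 CPM at 4 weeks and 103, 108 and 108 CPM at 3 weeks (log2 fold change 0.21 ± 0.08, adjusted p = 0.0473), the smallest of the 4 rises. That chr4-2 call was lost without 3 weeks replicate 1, 2 or 3 or 4 weeks replicate 2 or 3 (adjusted p 0.0736 to 0.152). The difference between genotypes in the 4-week change was tested after the data had been seen, and 0 of 10 members were called for chr4-2 minus WT, quintuple minus WT or qem2 minus quintuple, where 0%, 0% and 0.00511% of all genes were. No member had an unadjusted p under 0.05 in these tests, and DESeq2 called 0.

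**Figure D2:**
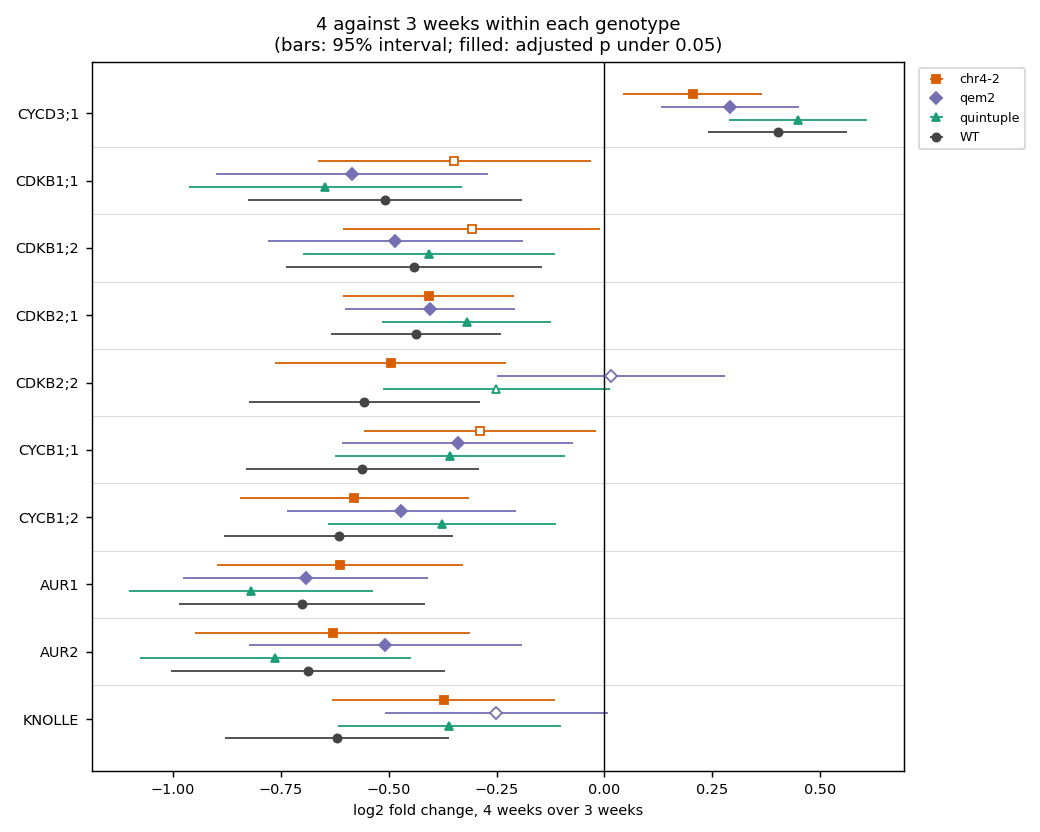
Log2 fold change at 4 weeks over 3 weeks (x axis) of each member (y axis) in chr4-2, qem2, quintuple and WT, with bars for 95% intervals and filled points for an adjusted p under 0.05. The genes of G2 and mitosis lie left of or at 0, from -0.82 (AUR1 in quintuple) to 0.01 (CDKB2;2 in qem2), and the G1 cyclin CYCD3;1 lies right of it in all genotypes.

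After 4 weeks no member passed the test from one week to the next within a genotype when all 47 libraries were fitted. edgeR called 0 of 10 members between 5 and 4 weeks, where 4.75% of all genes were called in WT, 10.6% in chr4-2, 11.3% in quintuple and 0.230% in qem2. It also called 0 of 10 between 6 and 5 weeks, where 0.353% of all genes were called in WT, 0.291% in chr4-2, 1.92% in quintuple and 0.0511% in qem2. Of 40 results each, 5 at 5 over 4 weeks and 9 at 6 over 5 weeks had an unadjusted p under 0.05. DESeq2 called none at 5 over 4 weeks and 1 at 6 over 5 weeks, CDKB2;1 in quintuple (adjusted p = 0.0418). Shares of all genes called are given for the main edgeR fit at an adjusted p alone. Counts of members by other rules or fits, here and elsewhere, are therefore descriptions. Leaving out 1 library gave calls within a genotype. At 5 over 4 weeks CDKB1;1 then passed, higher, in quintuple without 4 weeks replicate 1 (adjusted p = 0.00542) and in qem2 without 4 weeks replicate 1 (adjusted p = 0.0319), as did CDKB2;1 in qem2 without 4 weeks replicate 1 (adjusted p = 0.0137). At 6 over 5 weeks CDKB2;1 passed in quintuple without 6 weeks replicate 2 (adjusted p = 0.044). Changes averaged over the 4 genotypes were added after the data had been seen. Averaged over the genotypes, CYCB1;1 rose at 5 over 4 weeks (log2 fold change 0.22 ± 0.07, adjusted p = 0.0119), 1 of 10 members where 14.8% of all genes were called higher. At 6 over 5 weeks CDKB2;1 (0.24 ± 0.05, adjusted p = 0.00173), CYCB1;2 (0.23 ± 0.07, adjusted p = 0.0292), AUR2 (0.31 ± 0.08, adjusted p = 0.0137) and KNOLLE (0.23 ± 0.07, adjusted p = 0.0263) rose, 4 of 10 where 4.22% of all genes were called higher. Over all adjacent weeks averaged, DESeq2 called 18 of 30 member results (9 higher, 9 lower), against 15 in edgeR (6 higher, 9 lower). Leaving out 1 library gave further averaged calls. At 5 over 4 weeks averaged, these were CDKB1;1 without quintuple at 4 weeks replicate 1 (adjusted p = 0.0316), CDKB2;1 without chr4-2 at 4 weeks replicate 1, quintuple at 4 weeks replicate 1 or qem2 at 4 weeks replicate 1 (adjusted p 0.0237 to 0.0313) and the G1 cyclin without qem2 at 4 weeks replicate 1 (adjusted p = 0.0375). At 6 over 5 weeks averaged, they were AUR1 without WT at 5 weeks replicate 3, WT at 6 weeks replicate 3, chr4-2 at 6 weeks replicate 3 or quintuple at 6 weeks replicate 2 (adjusted p 0.0193 to 0.0465), CDKB2;2 without WT at 5 weeks replicate 3, chr4-2 at 6 weeks replicate 3 or qem2 at 6 weeks replicate 1 (adjusted p 0.0166 to 0.0267), and CDKB1;1 and CYCB1;1 without WT at 5 weeks replicate 3 (adjusted p = 0.0164 and 0.01). The CYCB1;2 call was lost without WT at 5 weeks replicate 2, chr4-2 at 5 weeks replicate 2, qem2 at 5 weeks replicate 1 or 2, WT at 6 weeks replicate 2, chr4-2 at 6 weeks replicate 1 or 2, quintuple at 6 weeks replicate 1 or qem2 at 6 weeks replicate 3 (adjusted p 0.051 to 0.0718). That of KNOLLE was lost without WT at 5 weeks replicate 2, qem2 at 5 weeks replicate 2, chr4-2 at 6 weeks replicate 2, quintuple at 6 weeks replicate 1 or qem2 at 6 weeks replicate 3 (adjusted p 0.0565 to 0.0745). Over the 36 profiles of the 9 genes of G2 and mitosis in 4 genotypes, the highest weekly mean stood at 3 weeks in 28 and at 6 weeks in 8, and the lowest at 4 weeks in 22, at 5 weeks in 13 and at 6 weeks in 1. The G1 cyclin had its lowest mean at 3 weeks in 3 genotypes and its highest at 4 weeks in 3.

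Between 5 and 4 weeks neither the Auroras nor KNOLLE passed the test in any genotype. AUR1 had 26.9, 24.3 and 26.6 CPM in chr4-2 at 5 weeks, a log2 fold change over 4 weeks of -0.22 ± 0.14 (adjusted p = 0.332). In qem2 its 2 libraries had 34.4 and 28.8 CPM (0.36 ± 0.16, adjusted p = 0.231). In quintuple it had 28.7, 32.1 and 29.1 CPM (0.19 ± 0.14, adjusted p = 0.399), and in WT 28.0, 22.9 and 31.1 CPM (-0.09 ± 0.14, adjusted p = 0.794). All libraries of 5 weeks lay above all of 4 weeks in qem2 and in quintuple, and the weeks overlapped in chr4-2 and WT. AUR2 at 5 weeks was read at 22.2, 19.4 and 21.0 CPM in chr4-2, 22.3, 22.7 and 17.6 CPM in quintuple and 20.8, 15.8 and 24.0 CPM in WT. WT replicate 2 was the lowest of these and WT replicate 3 the highest, and both qem2 libraries lay within the range of chr4-2. KNOLLE at 5 weeks had 129, 123 and 135 CPM in chr4-2, 141 and 130.5 CPM in qem2, 124, 123 and 124 CPM in quintuple and 129.9, 104 and 133 CPM in WT. The 3 quintuple libraries were the closest to each other, and WT replicate 2 was again the lowest. At 6 weeks KNOLLE had 133, 167 and 116 CPM in chr4-2, 148, 152 and 173 CPM in qem2, 188, 139 and 145 CPM in quintuple and 147, 149 and 132 CPM in WT. Quintuple replicate 1 was the highest and chr4-2 replicate 3 the lowest of these, and the genotypes overlapped.

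At 6 weeks several of the mitotic genes stood above their 4-week level in qem2 and quintuple. The contrast of 6 with 4 weeks was also added after the data had been seen. CDKB2;1 in qem2 had 86.9, 100.4 and 93.3 CPM at 6 weeks, against 75.6, 61.5 and 64.0 CPM at 4 weeks (log2 fold change 0.49 ± 0.10, adjusted p = 0.000714). In quintuple it had 106, 86.1 and 102 CPM at 6 weeks and 81.6, 67.2 and 69.8 CPM at 4 weeks (log2 fold change 0.43 ± 0.10, adjusted p = 0.00145). All 6-week libraries lay above all 4-week libraries in both. AUR1 in qem2 was read at 39.3, 35.4 and 35.7 CPM at 6 weeks and 27.1, 22.9 and 23.6 CPM at 4 weeks (log2 fold change 0.57 ± 0.14, adjusted p = 0.00548). The members called higher were CDKB1;1, CDKB2;1, CYCB1;1, AUR1 and KNOLLE in both lines, and CYCB1;2 in qem2, which makes 6 of 10 in qem2 (7.04% of all genes) and 5 of 10 in quintuple (8.64%). In WT CYCB1;1 alone was called higher (0.47 ± 0.13, adjusted p = 0.017), 1 of 10 beside 3.59%, and in chr4-2 0 of 10 were, beside 6.44% (1 at an unadjusted p under 0.05). The G1 cyclin fell in qem2 (-0.34 ± 0.08, adjusted p = 0.00308), where 10.2% of all genes were called lower. Calls gained without 1 library were CDKB2;1 in chr4-2 without 4 weeks replicate 1 (adjusted p = 0.0278), KNOLLE in WT without 4 weeks replicate 2 (adjusted p = 0.0212) and the G1 cyclin, lower, in quintuple without 4 weeks replicate 1 (adjusted p = 0.0359). In qem2 they were AUR2 without 4 weeks replicate 1 (adjusted p = 0.0119) and CDKB1;2 without 4 weeks replicate 1 (adjusted p = 0.0086). The difference of these changes between genotypes was not tested. Of the 13 calls, 3 survived the removal of every library in turn, and 2 were left when the compared libraries were fitted alone. In quintuple, CDKB1;1 was lost without 4 weeks replicate 2 or 3 or 6 weeks replicate 1 (adjusted p 0.0518 to 0.125) and AUR1 without 4 weeks replicate 2 or 3 or 6 weeks replicate 1 or 3 (adjusted p 0.0734 to 0.218). KNOLLE was lost there without 4 weeks replicate 2 or 3 or 6 weeks replicate 1 (adjusted p 0.102 to 0.292) and CYCB1;1 without 6 weeks replicate 1 (adjusted p = 0.0613). In qem2, CDKB1;1 was lost without 4 weeks replicate 2 or 3 or 6 weeks replicate 1, 2 or 3 (adjusted p 0.0572 to 0.268), KNOLLE without 4 weeks replicate 3 or 6 weeks replicate 3 (adjusted p 0.092 to 0.102) and CYCB1;1 without 4 weeks replicate 3 (adjusted p = 0.079). Also in qem2, CYCB1;2 was lost without 4 weeks replicate 3 (adjusted p = 0.0681) and CYCD3;1 without 4 weeks replicate 2 (adjusted p = 0.0517). The WT call of CYCB1;1 was lost without 4 weeks replicate 3 or 6 weeks replicate 2 (adjusted p 0.126 to 0.151).

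Over the whole course, the Aurora kinases stayed below their 3-week level at 6 weeks in chr4-2, quintuple and WT. AUR1 had 29.4, 34.9 and 23.3 CPM at 6 weeks in chr4-2, against 43.5, 49.6 and 44.7 CPM at 3 weeks (log2 fold change -0.66 ± 0.14, adjusted p = 0.000219). In quintuple it had 40.2, 28.1 and 36.1 CPM at 6 weeks and 44.8, 54.5 and 40.2 CPM at 3 weeks (log2 fold change -0.42 ± 0.14, adjusted p = 0.0142), and in WT 32.9, 38.1 and 30.0 CPM and 44.9, 50.4 and 47.1 CPM (log2 fold change -0.51 ± 0.14, adjusted p = 0.00429). The 6-week libraries were below the 3-week ones in all 3 of these genotypes, but in quintuple replicate 1 of 6 weeks lay just under the lowest 3-week library. In qem2 AUR1 had 39.3, 35.4 and 35.7 CPM at 6 weeks and 40.9, 41.4 and 36.6 CPM at 3 weeks, a value of -0.12 ± 0.14 (adjusted p = 0.549). AUR2 at 6 weeks had 23.8, 29.3 and 18.9 CPM in chr4-2 (-0.57 ± 0.16, adjusted p = 0.00311), below all 3 libraries of 3 weeks given above. Quintuple had 28.4, 23.2 and 26.8 CPM of AUR2 (-0.43 ± 0.15, adjusted p = 0.0224) and in WT 24.5, 26.2 and 26.7 CPM (-0.50 ± 0.16, adjusted p = 0.00988), again below all 3-week libraries of the same genotype. In qem2 it had 26.0, 27.6 and 24.4 CPM (-0.08 ± 0.16, adjusted p = 0.73), and the weeks overlapped.

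Of the 10 members, chr4-2 had 6 called lower and 1 higher at 6 over 3 weeks, where 23.1% of all genes were called lower and 22.9% higher. WT had 5 lower and 1 higher (19.2% and 18.8%), quintuple 2 lower and 1 higher (21.0% and 20.5%), and qem2 0, where 35.5% were called in either direction. No member of qem2 had an unadjusted p under 0.05, and DESeq2 called 0 in qem2. Besides the Auroras, the cyclin CYCB1;2 fell in chr4-2 (-0.46 ± 0.13, adjusted p = 0.00398) and WT (-0.37 ± 0.13, adjusted p = 0.0227). The kinase CDKB2;2 fell in chr4-2 (-0.38 ± 0.13, adjusted p = 0.0156) and WT (-0.33 ± 0.13, adjusted p = 0.0481), and so did CDKB1;2 in chr4-2 (-0.36 ± 0.15, adjusted p = 0.0431) and WT (-0.42 ± 0.15, adjusted p = 0.0211). KNOLLE was called lower in chr4-2 (-0.33 ± 0.13, adjusted p = 0.0342) and had -0.26 ± 0.13 (adjusted p = 0.112) in WT, 0.00 ± 0.13 (adjusted p = 0.981) in quintuple and 0.19 ± 0.13 (adjusted p = 0.251) in qem2. CDKB1;1, CDKB2;1 and CYCB1;1 were called in no genotype in the fit of all 47 libraries. When the WT libraries of these 2 weeks were fitted alone, 7 members were called lower in WT, and the share of all genes in that fit is not given. CYCD3;1 had 133, 130.3 and 133 CPM at 6 weeks in WT, against 105, 106 and 100.1 CPM at 3 weeks (log2 fold change 0.35 ± 0.08, adjusted p = 0.000627), all 3 above. It rose in quintuple (0.26 ± 0.08, adjusted p = 0.00865) and chr4-2 (0.21 ± 0.08, adjusted p = 0.031). In qem2 it had 110.5, 118 and 102 CPM at 6 weeks and 105, 122 and 114 CPM at 3 weeks (-0.05 ± 0.08, adjusted p = 0.667), with overlap. Of the 16 calls at 6 over 3 weeks, 5 survived the removal of every library in turn.

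Without 1 library the count in WT fell to 3 (without 3 weeks replicate 2) or 2 (3 weeks replicate 3), that in chr4-2 to 4 (3 weeks replicate 3 or 6 weeks replicate 1) or 2 (6 weeks replicate 3), and that in quintuple to 1 (6 weeks replicate 2). In WT, CDKB2;2 was lost without 3 weeks replicate 2 or 3 or 6 weeks replicate 1, 2 or 3 (adjusted p 0.0616 to 0.234), and CYCB1;2 without 3 weeks replicate 2 or 3 or 6 weeks replicate 1 or 3 (adjusted p 0.0539 to 0.121). CDKB1;2 was lost in WT without 3 weeks replicate 2 or 3 or 6 weeks replicate 2 (adjusted p 0.0642 to 0.0963) and AUR2 without 3 weeks replicate 3 (adjusted p = 0.0708). In chr4-2, KNOLLE was lost without 3 weeks replicate 1 or 2 or 6 weeks replicate 1 or 3 (adjusted p 0.074 to 0.236), and CDKB1;2 without 3 weeks replicate 2 or 3 or 6 weeks replicate 1 or 3 (adjusted p 0.116 to 0.208). The G1 cyclin was lost in chr4-2 without 3 weeks replicate 1 or 3 or 6 weeks replicate 1 or 3 (adjusted p 0.0523 to 0.159), CDKB2;2 without 3 weeks replicate 3 or 6 weeks replicate 3 (adjusted p 0.0603 to 0.155) and CYCB1;2 without 6 weeks replicate 3 (adjusted p = 0.0546). In quintuple, AUR1 was lost without 3 weeks replicate 2 or 6 weeks replicate 2 (adjusted p 0.13 to 0.132) and AUR2 without 3 weeks replicate 3 or 6 weeks replicate 2 (adjusted p 0.0693 to 0.109). AUR1 in chr4-2 and WT, AUR2 in chr4-2, and the G1 cyclin in quintuple and WT kept their calls without any 1 library.

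Whether the 6-week change differed between genotypes was tested as such. edgeR and DESeq2 called 0 of 10 members for chr4-2 minus WT, quintuple minus WT and qem2 minus quintuple, where edgeR called 0.133%, 1.04% and 0.107% of all genes. In these 3 differences 2 of the 30 values had an unadjusted p under 0.05 by edgeR. They were CYCD3;1 in qem2 minus quintuple (-0.31 ± 0.11, adjusted p = 0.399 by edgeR) and CDKB2;1 in quintuple minus WT (0.28 ± 0.14, adjusted p = 0.504 by edgeR). The absence of calls in qem2 is therefore not shown to set it apart from quintuple.

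**Figure D3:**
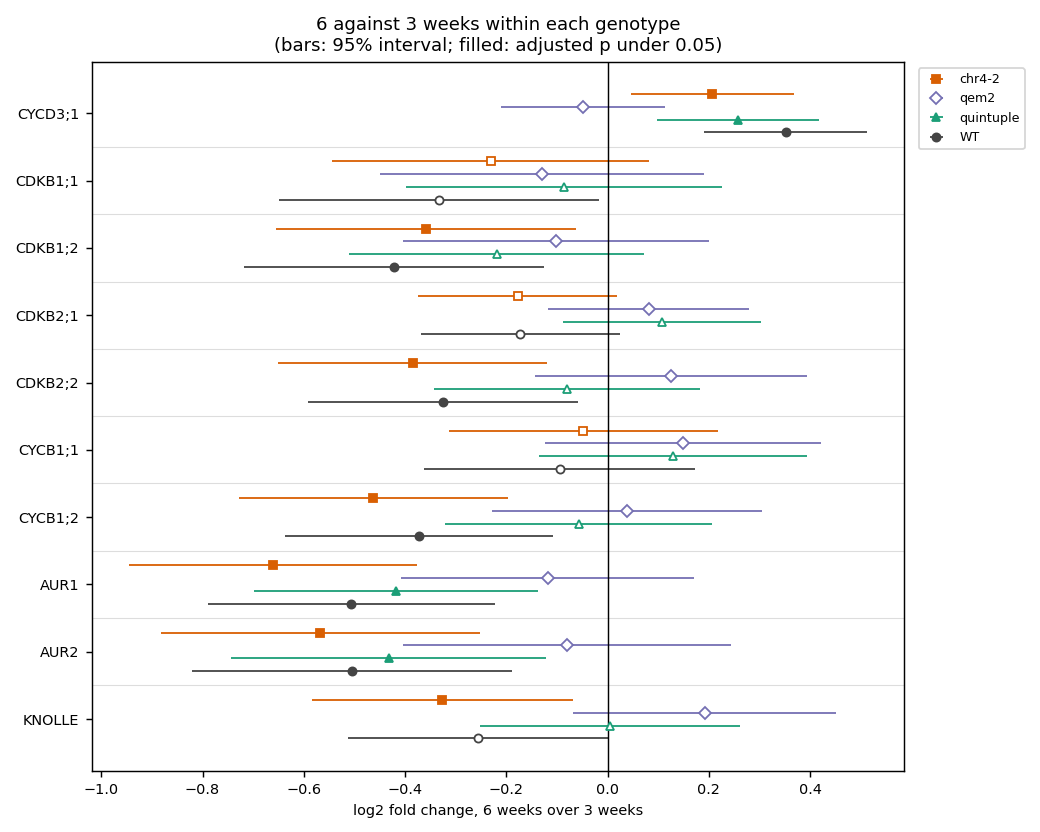
Log2 fold change at 6 weeks over 3 weeks (x axis) of each member (y axis) in chr4-2, qem2, quintuple and WT, with bars for 95% intervals and filled points for an adjusted p under 0.05. AUR1 runs from -0.66 in chr4-2 to -0.12 in qem2, and no qem2 point is filled.

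Between genotypes at the same week, no member was called in chr4-2 against WT, quintuple against WT or qem2 against quintuple. For chr4-2 against WT, 0 of 10 were called at 3, 4, 5 and 6 weeks, where 0.818%, 1.09%, 2.32% and 4.01% of all genes were, and 0 averaged over the weeks, where 11.9% were. For quintuple against WT the shares of all genes were 0.404%, 12.4%, 6.86% and 6.29% by week and 22.6% averaged. For qem2 against quintuple they were 1.05%, 1.23%, 1.41% and 2.86% by week and 11.1% averaged. At an unadjusted p under 0.05 stood 7 of the 120 weekly and 2 of the 30 averaged effects in edgeR, and DESeq2 called 0. Averaged over the weeks, all 30 effects had 95% intervals inside a 1.5-fold change in either direction, the lowest bound being -0.30 and the highest 0.27 on the log2 scale, and the estimates ran from -0.13 to 0.14. The share of all tested genes inside that bound is not given, averaged or by week, so these counts do not set the members apart. By week, 119 of 120 intervals lay inside that bound.

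The exception was AUR2 at 3 weeks, with 26.7, 28.8 and 26.9 CPM in qem2, against 33.5, 35.4 and 37.1 CPM in quintuple. All qem2 libraries lay below all quintuple libraries, and the log2 fold change was -0.36 ± 0.15 (adjusted p = 0.386), with a 95% interval of -0.67 to -0.05. In a fit of the compared libraries alone its adjusted p was 0.0232. In quintuple against WT, the smallest weekly adjusted p was that of CDKB2;2 at 4 weeks, with 41.5, 38.0 and 49.3 CPM in quintuple, against 36.8, 38.3 and 31.0 CPM in WT (log2 fold change 0.29 ± 0.13, adjusted p = 0.15). The groups overlapped. The smallest averaged adjusted p was that of CDKB2;1. At 5 weeks it had 76.9, 78.6 and 81.4 CPM in quintuple, against 68.8, 62.6 and 70.8 CPM in WT (log2 fold change 0.23 ± 0.10, adjusted p = 0.163), and the groups did not overlap. At 6 weeks it had 106, 86.1 and 102 CPM in quintuple, against 82.8, 90.4 and 76.4 CPM in WT (log2 fold change 0.24 ± 0.10, adjusted p = 0.157), with overlap. Averaged over the weeks it had 85.2 CPM in quintuple, against 78.3 CPM in WT (log2 fold change 0.13 ± 0.05, adjusted p = 0.0576), and it passed the threshold without WT at 3 weeks replicate 3, WT at 4 weeks replicate 2, WT at 5 weeks replicate 3, WT at 6 weeks replicate 2 or quintuple at 6 weeks replicate 2 (adjusted p 0.0266 to 0.0483). With the replicate number as a block it was called higher (adjusted p = 0.0303), though the numbers paired these genotypes at 5 weeks alone. Its relative CDKB2;2 had an averaged change of 0.14 ± 0.07 (adjusted p = 0.116). At 4 weeks CDKB1;1 had 36.6, 24.2 and 20.6 CPM in quintuple, against 33.8, 29.8 and 29.5 CPM in WT (log2 fold change -0.20 ± 0.16, adjusted p = 0.427), with quintuple replicate 1 above all WT libraries and replicates 2 and 3 below them, and without quintuple replicate 1 it was called lower (adjusted p = 0.0335).

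At 4 weeks CYCB1;1 had 39.5, 34.5 and 26.5 CPM in chr4-2, against 30.3, 29.1 and 23.6 CPM in WT (log2 fold change 0.28 ± 0.13, adjusted p = 0.53), and KNOLLE had 149.8, 133 and 121 CPM in chr4-2, against 113, 129.5 and 91.1 CPM in WT (log2 fold change 0.28 ± 0.13, adjusted p = 0.492). Both genes overlapped between the genotypes, and their averaged changes were 0.11 ± 0.07 (adjusted p = 0.307) and 0.09 ± 0.06 (adjusted p = 0.454). KNOLLE in qem2 had 148, 152 and 173 CPM, against 188, 139 and 145 CPM in quintuple at 6 weeks, and averaged over the weeks its change was -0.03 ± 0.07 (adjusted p = 0.847). CYCD3;1 at 6 weeks had 110.5, 118 and 102 CPM in qem2, against 128, 128 and 114 CPM in quintuple (log2 fold change -0.16 ± 0.08, adjusted p = 0.327). Its averaged changes were -0.03 ± 0.04 (adjusted p = 0.707) in qem2 against quintuple, -0.05 ± 0.04 (adjusted p = 0.508) in chr4-2 against WT and -0.02 ± 0.04 (adjusted p = 0.819) in quintuple against WT. The test of the qem2 effect minus the chr4-2 effect, averaged over weeks, called 0 of 10 members, where 0.475% of all genes were called. No member had an unadjusted p under 0.05 in it, and DESeq2 called 0.

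**Figure D4:**
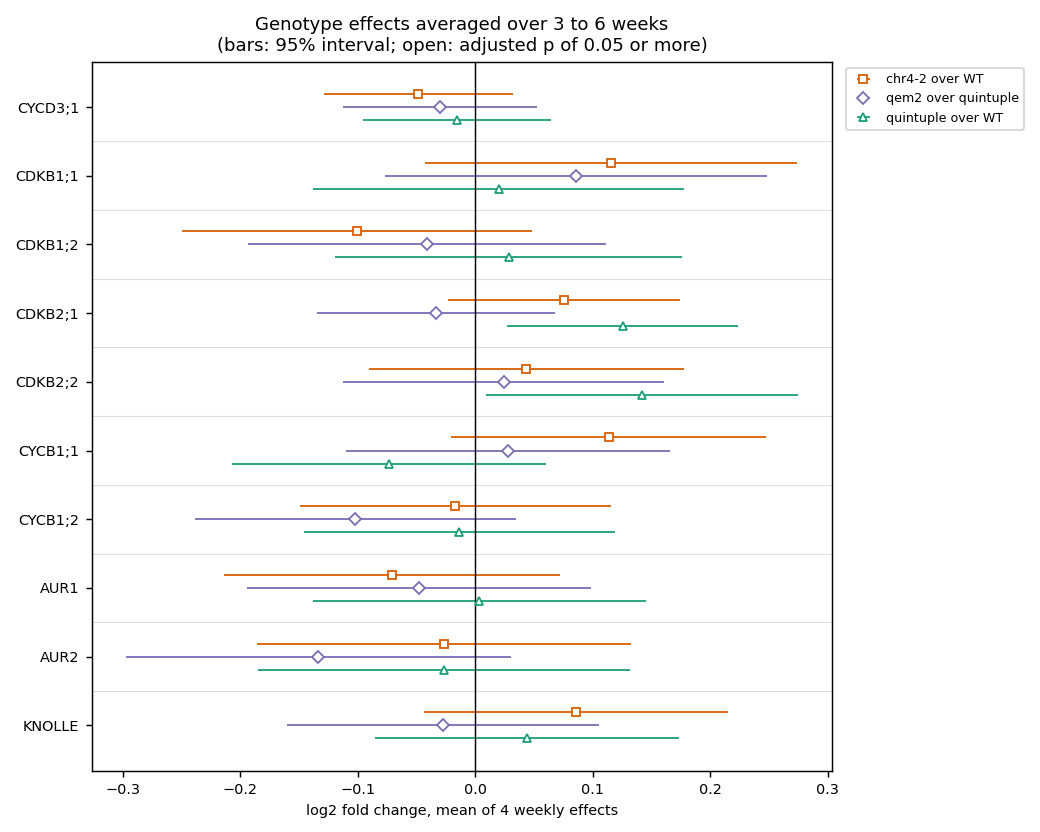
Log2 fold change averaged over 4 weeks (x axis) of each member (y axis) for chr4-2 over WT, qem2 over quintuple and quintuple over WT, with bars for 95% intervals and open points for an adjusted p of 0.05 or more. All 30 points are open and lie between -0.13 and 0.14.

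In the authors' deposited tables of genes that differed at 1 week, 0 of the 12 lists (quintuple or chr4-2 with WT, and the qem2 line with its control) held a member. The lists hold 46 to 966 genes each, beside 27206 genes counted, so the lack of a member says little about the members. The authors' deposited table of quintuple and WT over all genes and weeks holds all 10, and its smallest adjusted p for a member was 0.0703 (CDKB2;2), followed by 0.0904 (CDKB2;1) and 0.113 (CDKB1;1).

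The 9 genes of G2 and mitosis also varied together from library to library. Over the 16 group means of log2 CPM, Pearson's r of their 36 pairs had a median of 0.81 and a range of 0.48 to 0.95, with AUR1 and AUR2 at 0.95 and CYCB1;2 and KNOLLE at 0.93. Over the residuals of the 47 libraries from their group means, the median was 0.62 and the range 0.21 to 0.86, and this cyclin and KNOLLE had the highest value. In 6 libraries all 9 genes lay above their group means (WT at 5 weeks replicate 3, chr4-2 at 4 weeks replicate 1 and 6 weeks replicate 2, quintuple at 3 weeks replicate 2 and 6 weeks replicate 1, and qem2 at 3 weeks replicate 2). In 6 others all 9 lay below (WT at 3 weeks replicate 1, 4 weeks replicate 3 and 5 weeks replicate 2, chr4-2 at 4 weeks replicate 3, quintuple at 6 weeks replicate 2, and qem2 at 3 weeks replicate 3). The G1 cyclin ran against them, with r of -0.92 to -0.70 over group means and of -0.36 to -0.09 over residuals. The points share libraries and their scaling, so these values are descriptions. The depth of the libraries and the mean residual of the 9 genes had r = -0.06.

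**Figure D5:**
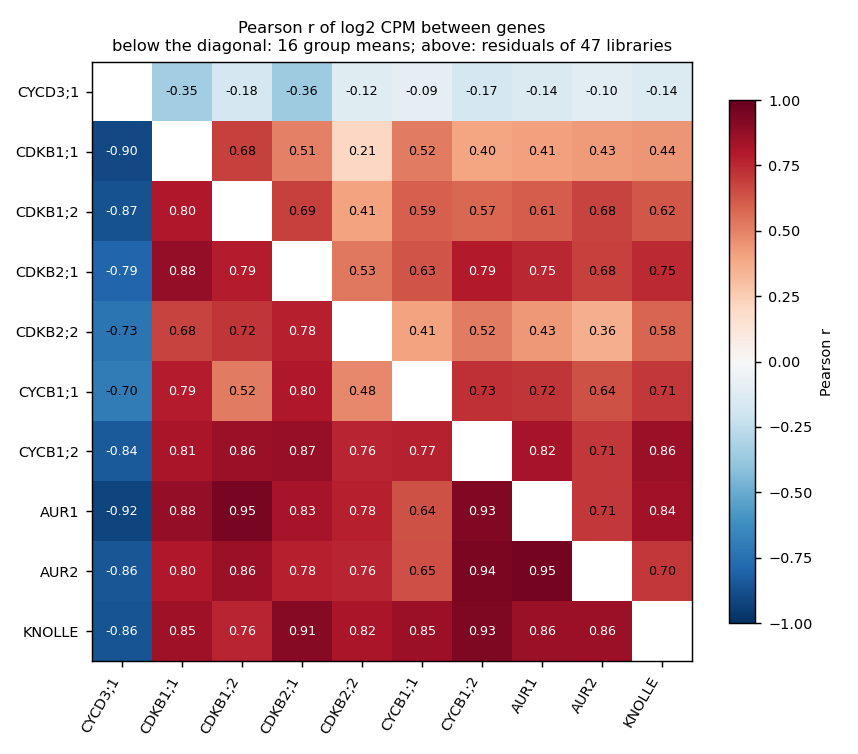
Pearson's r between members (rows and columns) on log2 CPM, below the diagonal over 16 group means and above it over the residuals of 47 libraries from their group means. The 9 genes of G2 and mitosis are positively correlated on both sides of the diagonal (medians 0.81 and 0.62), and the G1 cyclin is negative to them over group means.

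Among the other genes of the cell cycle, 96 in 9 groups of which 95 were tested, falls at 4 weeks were most frequent among spindle and cytokinesis genes and B-type cyclins in WT and chr4-2, and among replication genes in qem2. In WT 33 were called lower and 6 higher, in chr4-2 31 and 6, in quintuple 36 and 12, and in qem2 40 and 12, beside the shares of all genes given above for the members. The 16 spindle and cytokinesis genes had 13 lower in WT, 12 in chr4-2, 7 in quintuple (1 higher) and 8 in qem2 (2 higher), with median log2 fold changes of -0.56, -0.55, -0.28 and -0.32 in these genotypes. The 7 other B-type cyclins had 7 lower in WT, 5 in chr4-2, 3 in quintuple (1 higher) and 2 in qem2 (1 higher). The 16 genes of DNA replication had 7 lower in quintuple (median -0.45) and 11 in qem2 (median -0.50), while edgeR called none in WT (median 0.01, 0 at an unadjusted p under 0.05) or in chr4-2 (median 0.05, 0). Named after their values were seen, TSO2, a subunit of ribonucleotide reductase, changed by -1.48 ± 0.29 (adjusted p = 0.000122) and PCNA1, the replication clamp, by -1.07 ± 0.24 (adjusted p = 0.000599) at 4 over 3 weeks in qem2. The difference in the 4-week change of quintuple minus WT was called for 0% of all tested genes, as given above, so the genotypes are not shown to differ in it. The 15 tested D-type cyclins and G1 regulators had 4 higher and 0 lower in WT and in chr4-2, 6 and 1 in quintuple, and 5 and 2 in qem2.

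At 6 over 3 weeks the D-type cyclins and G1 regulators had 6 of 15 called higher in chr4-2, 5 in quintuple, 4 in WT and 4 in qem2, with 1 lower in WT and none in the others. CYCD3;2 averaged 224 CPM at 6 weeks in WT, against 124 CPM at 3 weeks (0.86 ± 0.15, adjusted p = 1.62e-05), and rose by 1.07 in chr4-2, 0.86 in quintuple and 0.77 in qem2 on the log2 scale. CYCD3;3 averaged 74.3 CPM at 6 weeks in WT, against 50.1 CPM at 3 weeks (0.57 ± 0.12, adjusted p = 0.000187), and CYCD5;1 rose in all 4 genotypes, by 0.58 (qem2) to 0.83 (quintuple). Of the other B-type cyclins 5 of 7 fell in WT, CYCB1;3 averaging 16.9 CPM at 6 weeks, against 30.3 CPM at 3 weeks (-0.85 ± 0.15, adjusted p = 4.62e-05), 2 fell in chr4-2 and 1 in quintuple, and 1 rose in qem2. The spindle and cytokinesis genes had 9 of 16 lower in WT and in chr4-2, 4 in quintuple (1 higher) and 1 in qem2 (3 higher). In WT these included the SNARE NPSN11, a partner of KNOLLE (-0.92 ± 0.13, adjusted p = 5.37e-07), the phragmoplast kinesin PAKRP1L (-0.68 ± 0.10, adjusted p = 2.66e-06) and the kinesin ATK1 (-0.48 ± 0.10, adjusted p = 0.000261). The replication genes had 2 of 16 lower in chr4-2 and no call in WT, quintuple or qem2, where 2, 0 and 1 had an unadjusted p under 0.05. MYB3R4, which activates genes with MSA elements, fell in WT (-0.42 ± 0.10, adjusted p = 0.00145) and in chr4-2 (-0.29 ± 0.10, adjusted p = 0.0205). Of 10 inhibitors of cyclin-dependent kinases 2 were lower and 1 higher in chr4-2, 3 and 2 in quintuple, 4 and 2 in WT and 3 and 2 in qem2. One of them, KRP3, rose in all 4 genotypes, by 1.06 in chr4-2, 1.14 in quintuple, 1.07 in WT and 0.87 in qem2. In all 95, 25 were lower and 9 higher in chr4-2, where 23.1% and 22.9% of all genes were. In WT 31 and 7 were (19.2% and 18.8% of all genes), in quintuple 11 and 9 (21.0% and 20.5%), and in qem2 5 and 12, where 35.5% of all genes were called in either direction.

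Averaged over the weeks, some of these genes were called between genotypes, and 0 of the 10 members were. Only the count of higher genes in quintuple against WT stood well above its share of all genes. At such shares, 0 of 10 does not set the members apart. In quintuple against WT 24 of 95 were called higher and 3 lower, where 11.3% of all genes were higher and 11.4% lower. The A-type cyclins had 6 of 9 higher, among them CYCA1;2 (0.51 ± 0.12, adjusted p = 0.0015) and CYCA2;3 (0.23 ± 0.06, adjusted p = 0.00815), and the D-type cyclins and G1 regulators 6 of 15, led by CYCD1;1 (0.57 ± 0.08, adjusted p = 1.84e-06), CYCD5;1 (0.42 ± 0.06, adjusted p = 2.65e-06) and E2FB (0.40 ± 0.07, adjusted p = 0.000106). The kinase inhibitor KRP1 was lower (-1.10 ± 0.29, adjusted p = 0.00517). In chr4-2 against WT 7 were higher and 7 lower, where 6.50% and 5.38% of all genes were, among them CYCB2;1 (-0.36 ± 0.09, adjusted p = 0.00327) and CYCA2;4 (-0.29 ± 0.05, adjusted p = 0.000108) lower and the cytokinesis kinase gene ANP1 (0.33 ± 0.06, adjusted p = 0.000159) higher. In qem2 against quintuple 1 was higher and 6 lower, where 6.20% and 4.88% were, and the lower ones included PCNA1 (-0.39 ± 0.12, adjusted p = 0.0383), PCNA2 (-0.23 ± 0.06, adjusted p = 0.0105) and CYCA2;1 (-0.47 ± 0.13, adjusted p = 0.0157). The quintuple libraries are the control in one comparison and the mutant in another, so these counts are not independent.

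The levels of tissue marker genes moved with the weeks as well, and a change in the share of a tissue cannot be told apart from a change in the expression of its markers. The summed level of the 5 leaf mesophyll markers (LHCB1.1, RBCS1A, RBCS2B, CA1 and RCA) had group means of 3776 to 6238 CPM at 3 weeks, 2846 to 3779 at 4 weeks, 1874 to 2492 at 5 weeks and 2203 to 3167 at 6 weeks. The 8 meristem and boundary markers summed to 176 to 241, 268 to 338, 257 to 328 and 255 to 349 CPM at these weeks, and the 7 vascular markers to 186 to 257, 200.4 to 307, 92.1 to 118 and 62.0 to 80.1 CPM. No mesophyll marker was at 0 in any library. At 4 over 3 weeks 4 of 5 mesophyll markers were called lower in WT, chr4-2 and quintuple and 3 in qem2, and 4 of 8 meristem markers were called higher in WT, 5 in chr4-2, 4 in quintuple and 1 in qem2, where 1 was lower. Over the 16 group means, the mean log2 level of the 9 genes of G2 and mitosis had r = 0.61 with the mesophyll markers (0.30 without the 2 farthest groups), -0.66 with the meristem markers (-0.39) and -0.01 with the vascular markers. Over the residuals of the 47 libraries the vascular markers had r = -0.46 (-0.26 without the 2 farthest libraries). The floral organ markers that passed the filter, with levels near 0 in most libraries, had r = 0.33 (0.36). The mesophyll and meristem markers had r = 0.18 and 0.14. The part of these tissues in the changes over the weeks was not tested.

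The tested genes most like each member over the 16 group means, the 2 with the highest r for each, had r of 0.92 to 0.98. Of these 20 entries, which name 19 genes, 3 are on the cell-cycle lists: the cytokinesis kinesin HIK with CYCB1;2 (0.97), CYCB1;4 with KNOLLE (0.96) and CYCB3;1 with CDKB1;2 (0.95). ENODL14, an early nodulin-like protein, was most like CDKB1;1 (0.96), the beta-galactosidase gene BGAL3 most like CDKB2;2 (0.94), and AT1G30690 was among the 2 most like AUR1 (0.98) and AUR2 (0.96). The G1 cyclin was followed most closely by AT1G54320 (0.96). With 16 points that share libraries and scaling, and 19566 genes to choose from, these values are descriptions.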

How the data were processed

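RNA of shoot apices was sequenced in 48 libraries, after TruSeq library preparation per the labels' protocols. Counts of reads per gene were deposited by the authors as whole numbers, and the submitters' processing notes name the aligner TopHat2, the counter HTSeq, SAMtools, DESeq2 and the genome build TAIR10, with no version. The authors also deposited tables of their own comparisons, with a log2 fold change per week, a p-value and an adjusted p. Of these, only the sizes of the lists and the members' presence and adjusted p are given here. The mean signal in those tables, deposited by the authors as a mean of normalized counts, was not used. The count column of qem2 at 5 weeks replicate 3 was left out.

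Counts were analysed with edgeR 4.0.16 in R 4.3.3: filterByExpr kept 19566 genes, libraries were scaled by TMM (factors 0.874 to 1.05), 1 quasi-likelihood fit held the 16 groups, and p-values were adjusted by Benjamini-Hochberg over all kept genes. The script was tested on simulated data in which few genes changed, in a single group. Such a setting does not show the error rates in these data. The biological coefficient of variation was 14.7%, and reads without molecular identifiers are not independent molecules. Alternatives were DESeq2 1.42.0, RLE scaling, no filter, a replicate block, the compared libraries alone, a fold minimum, and each library left out. RefSeq entries (TAIR10.1, whose coordinates are given for promoters) matched 98.2% of identifiers. The members, the other gene lists and the rule for named genes (up to 4 called genes of smallest adjusted p per list, averaged over weeks and at 6 over 3 weeks, and the 2 genes most like each member) were chosen with earlier results of these data known.

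Replicates with the same number had deviations from their group means that were correlated above 0.1 in all 3 pairs in 5 of 12 genotype comparisons and 0 of 20 comparisons of weeks. Comparisons with qem2 at 5 weeks have 2 pairs and could not meet that rule. Both pairs were above 0.1 for qem2 against quintuple at 5 weeks (0.101 and 0.167) and for 6 against 5 weeks in qem2 (0.173 and 0.387). Where all 3 pairs passed, the replicate block changed no call of a member. The labels state 3 biological replicates but no pairing, and p-values measure the spread between these pools of 15 apices.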

Additional observations from a re-analysis of the deposited data

How the results depend on the processing

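Of 78 called changes of a member, 44 kept their call without any 1 library, 73 kept it under RLE scaling, no low-count filter, DESeq2 and the replicate block, 59 kept it when only the compared libraries were fitted, and 0 changed sign. With any 1 library left out, the count of called members at 6 over 3 weeks was 2 to 6 in WT, 2 to 7 in chr4-2 and 1 to 3 in quintuple, that at adjacent weeks 29 to 37 of 120, that at adjacent weeks averaged over genotypes 13 to 19 of 30, and that at 6 over 4 weeks 9 to 15 of 40. It was 0 to 1 for quintuple against WT, both by week and averaged.

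A fold minimum of 0.5 on the log2 scale left 2 of 6 calls at 6 over 3 weeks in WT, 2 of 7 in chr4-2, 0 of 3 in quintuple, 16 of 34 at adjacent weeks, 4 of 15 at adjacent weeks averaged over genotypes, and 3 of 13 at 6 over 4 weeks, since most changes were smaller than that. With the compared libraries alone, 4 members were called at 6 over 3 weeks in chr4-2, 2 in quintuple and 8 in WT (7 lower and 1 higher). There were 2 calls at 6 over 4 weeks, and qem2 against quintuple by week gained 1 (AUR2 at 3 weeks, lower). Such fits have fewer samples. Without 1 library qem2 at 5 weeks has a lone sample, which is assumed to vary like the other groups.

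With replicate number as a block, 1 member was called in quintuple against WT averaged over weeks (CDKB2;1, adjusted p = 0.0303), the calls at 6 over 3 weeks were 5 in WT and 6 in chr4-2, and those at adjacent weeks 33. Replicates of the same number were correlated above 0.1 in all 3 pairs in 5 of 12 genotype comparisons and in 0 of 20 comparisons of weeks. Comparisons with qem2 at 5 weeks, with fewer pairs, could not meet that rule. The block was not used for the results above. Depth limits single libraries: a member had 63 reads at the lowest, and intervals cover the spread between pools of 15 apices.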
